A study of Mus musculus with 4 samples.

Results

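The genes examined were 35 leukocyte and macrophage genes, chosen by name, and their members in the data were the ATAC-seq peaks that the authors' annotation assigned to 1 of these genes as the nearest gene. ATAC-seq marks open chromatin by the insertion of sequencing adapters with the Tn5 transposase. The 4 peak lists came from the extensor digitorum longus (EDL), quadriceps (Quad), soleus (Sol) and diaphragm (Dia) of wild-type C57BL/6 mice, which the study's methods describe as male. No treatment or transgene is named for these libraries, and the labels give no age. EDL and Quad are mostly fast and glycolytic, Sol is slow and oxidative, and Dia works continuously. The libraries were made from nuclei of frozen, pulverised whole muscle, so every cell type of the tissue could contribute. Each muscle had 1 library, labelled as pooled, and the number of animals in a pool is not known here. The intervals given are 95% Wilson intervals unless named otherwise, and they cover counting error only.

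In all, 142 of the 120839 listed peaks were named for these genes, and 22 of the 35 genes had a peak in at least 1 list. The share of all protein-coding genes with a peak in at least 1 list was not counted. In single lists it was between 54.7% (Dia) and 64.2% (Quad), so genes without a peak were common at large. The lists held 33 such peaks in EDL, 54 in Quad, 24 in Dia and 31 in Sol. No peak was named for Coro1a, Ikzf1, Cd68, Itgam, Ccr2, Cd14, Cd74, Ciita, C1qa, C1qb, C1qc, Cd4 or Cd8a, 13 genes that include the integrin chain of myeloid cells (Itgam), the complement C1q chains that tissue macrophages make, and both T cell co-receptors.

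Skeletal muscle holds resident macrophages between its fibres, together with few lymphocytes, while most of its nuclei belong to fibres, endothelial cells and fibroblasts. Spi1 encodes PU.1, the factor that opens much of the macrophage enhancer repertoire, and Irf8 acts with it in monocytes. Ptprc encodes CD45, the phosphatase on nearly all leukocytes, and Csf1r is the receptor for the growth factor that macrophages need to survive. The class II genes (H2-Aa, H2-Ab1, H2-Eb1, with Cd74 and their activator Ciita) present antigen to T cells. Cd44, Runx1, Runx3, Tlr4 and Cd14 are also used by cells that are not leukocytes, and muscle fibres are known to raise Runx1 after loss of their nerve.

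Against list length, the 4 muscles were close. The peaks of these genes amounted to 11.0 per 10000 listed peaks in EDL (7.80 to 15.4). They amounted to 13.4 per 10000 in Quad (10.3 to 17.5), 11.1 in Dia (7.47 to 16.5) and 10.8 in Sol (7.59 to 15.3). All 4 intervals overlapped. The Quad list, with 40337 peaks, was the longest, followed by EDL with 30136, Sol with 28784 and Dia with 21582. With each list limited to its 20000 highest-scored peaks, the count was 19 in EDL, 20 in Quad, 23 in Dia and 17 in Sol. This keeps most of the Dia list. With the upper 50% of each list by score, the values were 8.63 per 10000 in EDL, 9.92 in Quad, 7.41 in Dia and 7.64 in Sol, so the muscle that stood highest depended on how the lists were cut. Runx1 alone accounted for 37 of the 142 peaks (26.1%). Without the genes that other cell types also use (Cd44, Runx1, Runx3, Tlr4 and Cd14), the values fell to 6.97 per 10000 in EDL, 7.93 in Quad, 6.95 in Dia and 5.21 in Sol.

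**Figure D1:**
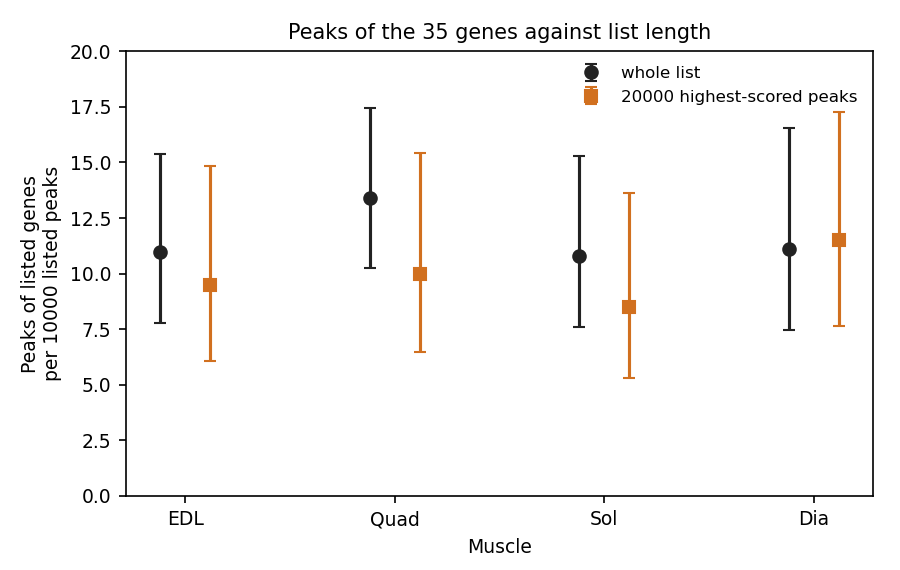
Number of peaks named for the 35 genes per 10000 listed peaks in each muscle, for the whole list (circles) and for its 20000 highest-scored peaks (squares), with 95% Wilson intervals. The intervals of the 4 muscles overlap on both settings, and Quad stands highest with the whole list and Dia with the 20000 highest-scored peaks.

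Fewer of these genes had a peak than of protein-coding genes at large. A peak was listed for 16 of the 35 genes in EDL (45.7%, 30.5% to 61.8%), where 58.4% of all protein-coding genes had at least 1. In Quad 21 of 35 had a peak (60.0%, 43.6% to 74.4%) beside 64.2% of all genes. In Sol it was 13 of 35 (37.1%, 23.2% to 53.7%) beside 58.2%, and in Dia 12 of 35 (34.3%, 20.8% to 50.8%) beside 54.7%. The share of all genes lay above the interval in Sol and Dia and within it in EDL and Quad. Among the 20000 highest-scored peaks, 10 of the 35 genes remained in EDL (all genes, 49.2%), 11 in Quad (49.3%), 12 in Dia (53%) and 9 in Sol (49.8%). Peaks in all 4 lists were found for 10 of the 35 genes, whereas 47.9% of all protein-coding genes had them. These 10 were Laptm5, Cd44, Spi1, Irf8, Runx1, Ly6c2, Tlr4, H2-Aa, H2-Ab1 and Fcgr3. Of the others, 3 genes were listed in 3 muscles, 4 in 2 muscles, and 5 in 1 muscle.

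**Figure D2:**
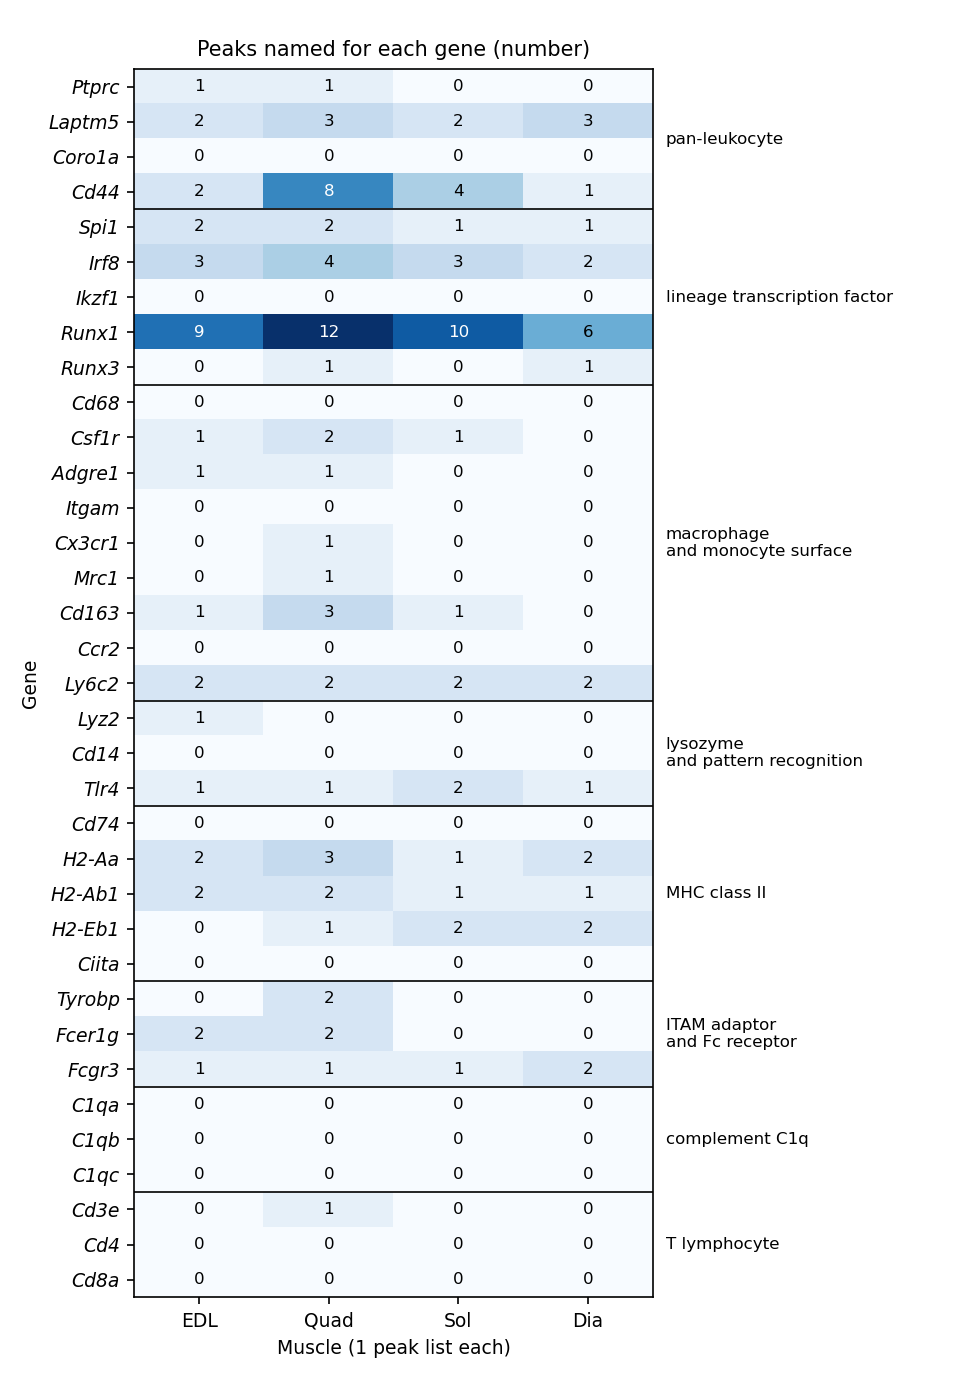
Number of peaks named for each of the 35 genes (rows, grouped by role) in the list of each muscle (columns), with darker cells for more peaks. Runx1 has 6 to 12 peaks in each list, 13 genes have none in any list, and 4 genes have peaks in Quad only.

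The comparison changed when genes were set against others with the same kind of promoter. Promoters rich in CpG are open in most tissues, so genes were divided by the base content of their annotated starts. A gene was called CpG-rich when any GENCODE start had at least 50% GC and an observed to expected CpG ratio of at least 0.6 from 250 bases before to 50 bases after it. By this measure 29 of the 35 genes were CpG-poor. A peak was listed for 13 of these 29 in EDL (44.8%, 28.4% to 62.5%), beside 34.9% of all CpG-poor genes. It was 17 in Quad (58.6%, 40.7% to 74.5%) beside 41.3%, 10 in Sol (34.5%, 19.9% to 52.7%) beside 34.6%, and 8 in Dia (27.6%, 14.7% to 45.7%) beside 30.8%. The share was thus higher than that of all CpG-poor genes in EDL and Quad, with the latter inside the interval in every muscle. Over all 35 genes the mean was 0.943 peaks per gene in EDL, where all protein-coding genes had 1.24. It was 1.54 beside 1.65 in Quad, 0.886 beside 1.19 in Sol and 0.686 beside 0.909 in Dia. The CpG-poor genes of the set had on average 0.690 peaks per gene in EDL, where all CpG-poor protein-coding genes had 0.695. The means were 1.24 and 0.962 in Quad, 0.586 and 0.662 in Sol, and 0.448 and 0.485 in Dia. Per 100 kb of the stretches nearest to their starts, the 35 genes had 0.900 peaks in EDL, 1.52 in Quad, 0.623 in Dia and 0.946 in Sol. The same measure over all protein-coding genes gave 1.11 in EDL, 1.48 in Quad, 0.791 in Dia and 1.06 in Sol.

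A promoter peak was listed for 5 of the 35 genes in EDL, 8 in Quad, 6 in Dia and 7 in Sol. Over all protein-coding genes the shares with a promoter peak were 40.3% in EDL, 44.2% in Quad, 39.6% in Dia and 40.2% in Sol. Among the 29 CpG-poor genes, a promoter peak was found for 3 in EDL, 6 in Quad, 3 in Dia and 5 in Sol. All CpG-poor genes had one in 15.8% of cases in EDL, 18% in Quad, 15.1% in Dia and 15.4% in Sol, which lay inside the interval of the set in every muscle (3.58% to 26.4% in EDL, 9.85% to 38.4% in Quad, 7.598% to 34.5% in Sol and 3.58% to 26.4% in Dia). Of the 6 CpG-rich genes (Coro1a, Irf8, Ikzf1, Runx1, Runx3 and Fcgr3), 2 had a promoter peak in EDL, Quad and Sol and 3 in Dia, beside between 61.0% and 67.3% of all CpG-rich genes. The gene with a promoter peak in Dia only was Fcgr3. That peak had 43.8% GC, while the start that made Fcgr3 CpG-rich had 74% GC. The peak was thus not shown to lie at a CpG-rich start. Coro1a, which organises actin in leukocytes, and Ikzf1, a lymphoid regulator, had a CpG-rich promoter and no peak in any list.

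**Figure D3:**
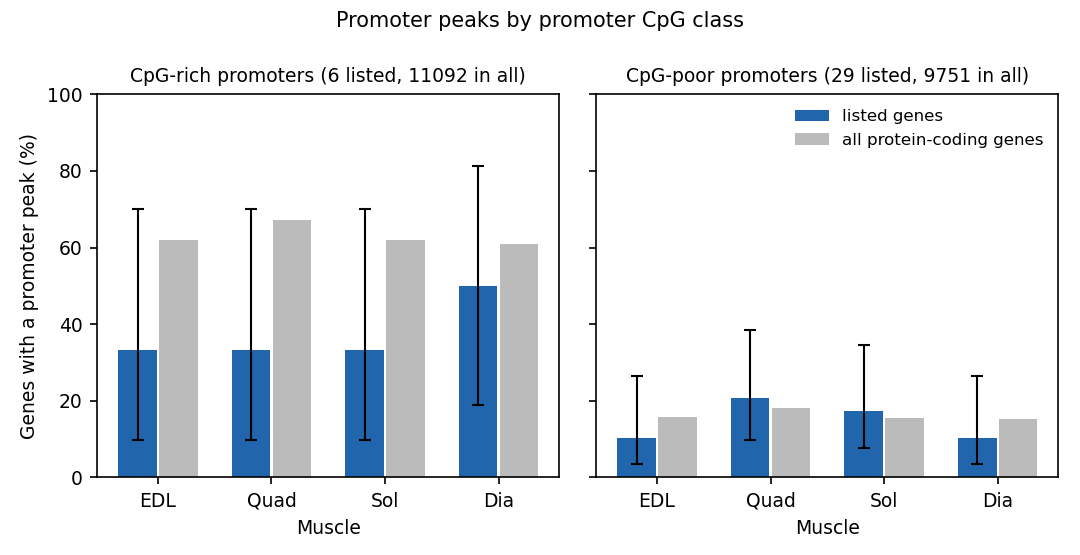
Share of genes with a promoter peak in each muscle (percent), for CpG-rich promoters (left) and CpG-poor promoters (right). Blue bars are the leukocyte and macrophage genes with 95% Wilson intervals, grey bars all protein-coding genes of the class, and the grey bar lies within the interval in every pair.

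By the authors' annotation, most peaks of the set lay between genes. Intergenic peaks made up 60.6% of them in EDL (43.7% to 75.3%) beside 29.9% of the whole list, and 53.7% in Quad (40.6% to 66.3%) beside 31.7%. In Sol the share was 51.6% (34.8% to 68.0%) beside 30.1%, and in Dia 58.3% (38.8% to 75.5%) beside 26.8%, so the share of the list lay below the interval in each muscle. Without Runx1 it was 54.2% in EDL (35.1% to 72.1%), 50% in Quad (35.5% to 64.5%), 50% in Dia (29.03% to 71.0%) and 47.6% in Sol (28.3% to 67.6%). In Sol the share of the list then lay within the interval. Promoter peaks numbered 5 in EDL, 9 in Quad, 7 in Dia and 8 in Sol. Introns held 7 in EDL, 13 in Quad, 2 in Dia and 7 in Sol. Exons, UTRs or transcript ends held 1 each in EDL and Dia, 3 in Quad and 0 in Sol.

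The score of a peak is the authors' normalised tag count, and its percentile is its rank within the muscle's own list. The median percentile of the peaks was 43.2 in EDL, 32.4 in Quad, 37.4 in Dia and 33.4 in Sol, all under the middle of the list. In Quad, 21 of the 54 peaks lay below percentile 25 of the list and 9 above percentile 75. Promoter peaks of the set ranked low beside promoter peaks at large. Their medians were at percentile 56.1 in EDL, 32.4 in Quad, 23.4 in Dia and 25.5 in Sol, whereas all promoter peaks of those lists had medians between 74.1 and 81.3. In EDL, 6865 CpG-rich and 1545 CpG-poor genes had a promoter peak, and the ranks were not matched by CpG class. Peaks outside promoters had medians of 42.03 in EDL, 32.4 in Quad, 38.1 in Dia and 40.5 in Sol, against medians of all such peaks of 38.3 in EDL, 40.03 in Quad, 34.1 in Dia and 38.2 in Sol. They were lower than these in Quad and higher in the other muscles.

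**Figure D4:**
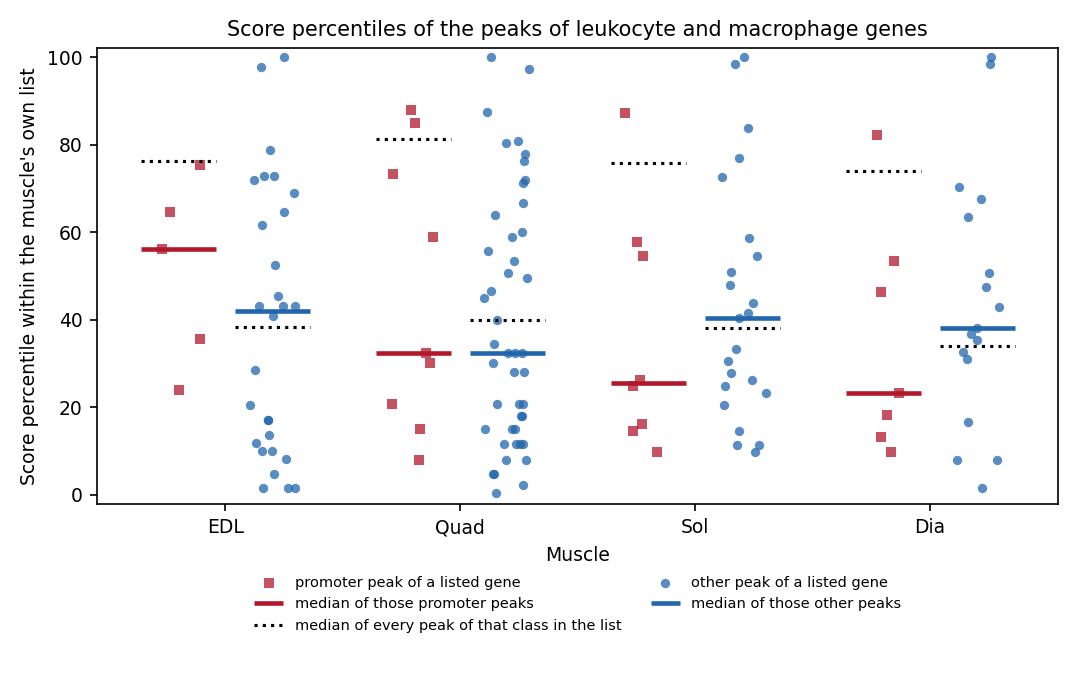
Score percentile of each peak named for the 35 genes within the list of its muscle, promoter peaks as red squares and other peaks as blue circles, spread sideways for legibility. Solid lines are their medians and dotted lines the medians of all peaks of that class in the list. The promoter peaks have lower medians than promoter peaks at large, which were not matched by CpG class. The 2 highest points of each muscle are the peaks of Ly6c2.

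Among the lineage transcription factors, Spi1 had peaks by name at a pair of sites. The site 12.3 to 12.4 kb upstream of its start scored 9.81 in EDL (percentile 71.8) and 14.0 in Quad (percentile 87.4), and had no peak in Sol or Dia, whose nearest peaks lay over 13 kb away. The site in intron 2, 4.90 to 4.98 kb downstream, was listed in all 4 muscles, at percentile 45.5 in EDL, 20.8 in Quad, 38.1 in Dia and 33.4 in Sol. Neither was a promoter peak, and no list had a promoter peak named for Spi1. The GENCODE gene body of Spi1, which includes both sites, held a further peak in each list that the annotation gave to Mybpc3. It lay 2.85 to 2.97 kb from the Mybpc3 start, at percentile 81.4 in EDL, 67.4 in Quad, 55.1 in Dia and 59.4 in Sol. The upstream peak lies at chr2:91084286-91084474 and the intronic peak at chr2:91101486-91101694 (mm10, plus strand). They are printed because Spi1 is the main regulator of macrophage identity in the set. Capitals mark matches to the E-box CAGCTG in the first and, in the second, to a pattern of the MEF2 motif (CTA, 4 bases of any kind, TAG). The second was chosen after its values were seen.
Spi1 upstream: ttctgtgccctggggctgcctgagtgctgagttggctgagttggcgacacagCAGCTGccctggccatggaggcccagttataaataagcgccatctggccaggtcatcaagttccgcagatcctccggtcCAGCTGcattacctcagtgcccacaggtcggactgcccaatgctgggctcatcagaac
Spi1 intron: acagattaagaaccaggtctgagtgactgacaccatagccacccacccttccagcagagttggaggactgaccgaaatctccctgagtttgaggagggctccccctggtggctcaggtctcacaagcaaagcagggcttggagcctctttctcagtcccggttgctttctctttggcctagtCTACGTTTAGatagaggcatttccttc

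Irf8 had 3 peaks in EDL, 4 in Quad, 2 in Dia and 3 in Sol. Its promoter peak stood at percentile 56.1 in EDL, 85.0 in Quad, 53.4 in Dia and 54.5 in Sol. Distances in the lists refer to 2 annotated starts of Irf8, 2.28 kb apart. The promoter peaks were measured from the upstream start and the other peaks from the downstream one. A peak in an intron 13.6 kb downstream was listed in all muscles at percentile 78.8 in EDL, 80.8 in Quad, 63.5 in Dia and 77.0 in Sol, among the highest of the set. A further site, 40.7 kb downstream, was at percentile 28.6 in EDL, 66.6 in Quad and 11.4 in Sol and was not listed in Dia. The last, 57.8 kb downstream, was listed in Quad alone, at percentile 40.03. The Quad peak of the intron, chr8:120752135-120752323 (mm10, plus strand), is printed as a site outside promoters that all muscles shared at a macrophage regulator, with the bases common to the 4 peaks in capitals.
Irf8 intron: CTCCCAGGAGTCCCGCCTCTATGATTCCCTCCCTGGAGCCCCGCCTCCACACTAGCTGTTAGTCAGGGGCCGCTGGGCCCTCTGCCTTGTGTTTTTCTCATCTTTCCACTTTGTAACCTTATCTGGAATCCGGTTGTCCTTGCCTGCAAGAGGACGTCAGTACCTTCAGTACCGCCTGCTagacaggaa

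Runx1, a factor of blood stem cells that muscle fibres can also express, had the most peaks of the set, with 9 in EDL, 12 in Quad, 6 in Dia and 10 in Sol. The distances in the lists refer to 2 annotated starts of the gene, 129 kb apart. The proximal start had a promoter peak in every muscle, at percentile 75.4 in EDL, 88.01 in Quad, 82.3 in Dia and 87.1 in Sol, the highest promoter percentile of the set in each list. The distal start, known as the one that mature blood cells mainly use, had no peak near it. The nearest peak lay 24.2 kb away in Quad, 127 kb in EDL, 127 kb in Sol and 129 kb in Dia. Upstream of the distal start, 26 intergenic peaks stretched from 71.05 to 256.5 kb.

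Of the 11 intergenic sites of Runx1, 3 were listed in all muscles. The site 149 kb upstream stood at percentile 61.8 in EDL, 77.9 in Quad, 50.6 in Dia and 72.7 in Sol. The site 246 kb upstream was lower, at 40.9 in EDL, 64.0 in Quad, 47.6 in Dia and 24.8 in Sol, and the site 181 kb upstream stood at 11.9 in EDL, 32.4 in Quad, 1.53 in Dia and 27.7 in Sol. The remaining intergenic sites were listed in 1 to 3 muscles. Within the gene, a site 1.41 to 1.57 kb upstream of the proximal start was at percentile 43.2 in EDL, 59.0 in Quad and 48.0 in Sol, and 4 intronic sites were each listed in Quad or Sol alone, at percentiles 11.6 to 30.6. Runx3, the related factor of T cells and other lineages, had 1 peak in Quad at percentile 11.6 and 1 at another site in Dia at percentile 8.03.

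**Figure D5:**
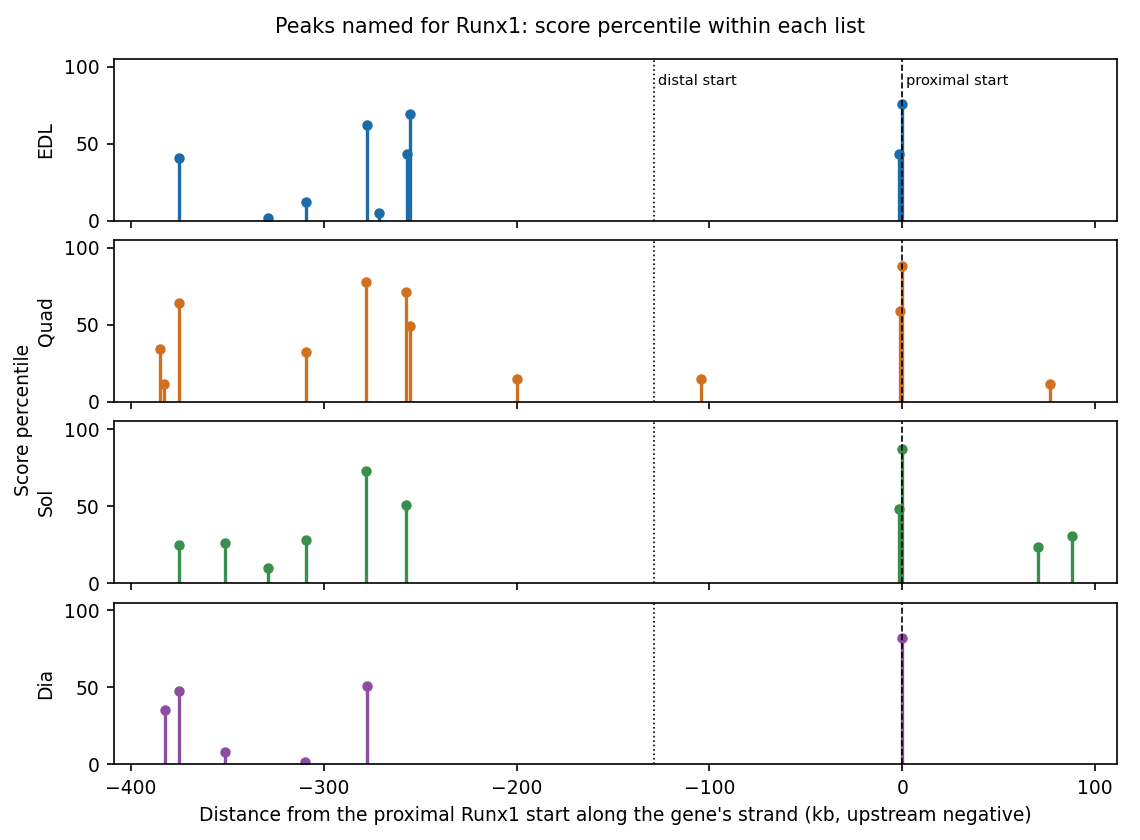
Peaks named for Runx1 in each muscle, placed by distance from the proximal start along the gene's strand (kb, upstream negative), with height giving the score percentile within the list. The dashed line is the proximal start, which has a peak in every muscle, and the dotted line the distal start, whose nearest peak lies 24.2 kb away in Quad and 127 to 129 kb away elsewhere.

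Of the pan-leukocyte genes, Ptprc had 1 peak in EDL and 1 in Quad at the same intronic site, 38.6 kb downstream of its start, at percentile 10.1 in EDL and 7.89 in Quad. Sol and Dia had none, and no list had a peak at the Ptprc promoter. Its EDL peak, chr1:138136460-138136668 (mm10, plus strand), is printed because it was the only listed site of the gene that defines leukocytes. Capitals mark a match to TGTGGTTT, the letters of the RUNX motif.
Ptprc intron: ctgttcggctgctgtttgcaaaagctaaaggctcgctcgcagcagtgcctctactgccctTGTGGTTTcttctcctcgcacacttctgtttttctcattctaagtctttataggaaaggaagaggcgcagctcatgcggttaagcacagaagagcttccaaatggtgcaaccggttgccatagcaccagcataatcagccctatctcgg

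Laptm5, a lysosomal membrane protein of blood cells, had a pair of intergenic sites in every muscle. The site 13.2 to 13.4 kb upstream ranged widely, from percentile 17.1 in EDL to 53.3 in Quad, 67.5 in Dia and 83.7 in Sol. The site 6.88 to 6.97 kb upstream varied less, at 43.2 in EDL, 60.1 in Quad, 42.9 in Dia and 54.5 in Sol. A further peak in Quad and Dia, 51.6 kb upstream, lay nearer to the start of Sdc3 when only protein-coding starts of GENCODE were used.

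Cd44, an adhesion receptor of leukocytes and of many stromal cells, had 2 peaks in EDL, 8 in Quad, 1 in Dia and 4 in Sol. Its site at the start was listed in all muscles, at percentile 17.1 in EDL, 32.4 in Quad, 36.8 in Dia and 24.8 in Sol. The annotation called this site a promoter in Quad and Sol and an exon, UTR or transcript end in EDL and Dia, because the peak centre lay on either side of the 100 bp limit. Of the other 7 Quad peaks, 5 were in no other list.

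The macrophage and monocyte surface genes were thinly covered. Csf1r had an intronic peak 2.94 to 3.03 kb downstream of its start, at percentile 20.5 in EDL, 55.7 in Quad and 43.8 in Sol, and none in Dia. Quad had a further Csf1r peak 6.44 kb upstream, at percentile 4.70. Adgre1, which encodes the macrophage marker F4/80, had 1 intergenic site, at percentile 13.7 in EDL and 14.95 in Quad. Cx3cr1, a chemokine receptor of monocytes, had a single peak by name, in Quad at percentile 28.03, while its long GENCODE gene body held 10 peaks in EDL, 10 in Quad, 5 in Dia and 7 in Sol that the annotation gave to other genes. Cd163, the haemoglobin scavenger receptor of resident macrophages, had a site 31.2 kb upstream at percentile 1.53 in EDL, 0.369 in Quad and 14.5 in Sol, and 2 more peaks in Quad at percentiles 2.35 and 50.8. None of these 4 genes had a promoter peak, and none had a peak in Dia. The Sol peak of Cd163, chr6:124273327-124273533 (mm10, plus strand), is printed as a site outside promoters with a match to the PU.1 motif GAGGAAGT, in capitals on the opposite strand.
Cd163 upstream: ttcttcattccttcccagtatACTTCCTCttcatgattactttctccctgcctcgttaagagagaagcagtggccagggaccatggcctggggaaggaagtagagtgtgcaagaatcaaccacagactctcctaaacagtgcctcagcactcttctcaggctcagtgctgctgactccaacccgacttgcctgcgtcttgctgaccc

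Mrc1, the mannose receptor of resident macrophages, had 1 peak by name, in Quad at percentile 7.89. Its introns held more peaks that the annotation gave to Mir511, a microRNA gene inside Mrc1. A site 34.5 to 34.6 kb from the start of Mir511 was listed in all muscles, at percentile 34.3 in EDL, 28.03 in Quad, 14.96 in Dia and 37.02 in Sol. A second site, 15.04 kb from it in EDL, was at percentile 39.6 in EDL and 38.2 in Quad. The absence of Mrc1 from 3 lists therefore holds for the assigned names and not for its gene body.

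Ly6c2, which marks inflammatory monocytes and some endothelial cells, had the highest scores of the set. It had 2 intergenic sites in every list, 24.99 to 26.4 kb downstream of its start. The first scored 66.9 in EDL, 71.8 in Quad, 70.3 in Dia and 64.8 in Sol, at percentiles 99.98 to 99.99 of the lists. The second scored 24.5 in EDL, 24.2 in Quad, 25.7 in Dia and 25.9 in Sol, at percentiles 97.4 to 98.4. These sites held repeated sequence. In the first, 76.4% of the 32-base words occurred more than once in the genome in EDL, 81.0% in Quad, 70.3% in Dia and 21.6% in Sol. In the second, the share was 27.7% to 32.9% and the peaks lay wholly in annotated repeats. No other gene of the set had a peak with repeated words except Fcer1g, with up to 1.69%. The part of these copies in the scores was not tested. Outside Ly6c2, the highest percentile of the set was 88.01, at the Runx1 promoter in Quad.

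Of the lysozyme and pattern recognition genes, Tlr4, the receptor for bacterial lipopolysaccharide, had a promoter peak in every muscle, at percentile 64.5 in EDL, 73.3 in Quad, 46.4 in Dia and 57.8 in Sol. Sol had a further intronic peak, at percentile 40.5. Lyz2, the lysozyme of myeloid cells, had 1 peak in EDL 2.90 kb upstream, at percentile 10.1.

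The MHC class II genes had promoter peaks in every muscle, and all but 1 lay below percentile 36 of their lists. Together H2-Aa, H2-Ab1 and H2-Eb1 had 12 promoter peaks over the 4 lists, between percentiles 7.89 and 59.0. The H2-Aa promoter was listed in all muscles, at percentile 24.04 in EDL, 7.89 in Quad, 13.2 in Dia and 16.1 in Sol. The H2-Ab1 promoter was at 35.7 in EDL, 59.0 in Quad and 26.2 in Sol and was not listed in Dia. H2-Eb1 had no peak in EDL. At its start the peak stood at percentile 20.8 in Quad, 23.4 in Dia and 14.5 in Sol, and Sol and Dia had a second promoter peak 0.863 to 0.907 kb upstream. Upstream of H2-Aa, a site at 8.47 kb was at percentile 8.30 in EDL and 45.0 in Quad, and a site at 3.92 to 4.01 kb was at 20.8 in Quad and 32.7 in Dia. Upstream of the H2-Ab1 start used in the lists, EDL had a peak at percentile 1.53, and Quad and Dia shared a site at 28.03 and 31.1. Both sites overlapped the GENCODE gene body of H2-Ab1. No list had a peak named for Cd74, the invariant chain that accompanies these molecules, or for Ciita, although the body of Ciita held 1 Quad peak given to Dexi at percentile 38.2.

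Of the genes for signalling adaptors and Fc receptors, Tyrobp had 2 promoter peaks, both in Quad, at percentiles 14.95 and 30.2. The second held a match to the PU.1 motif. Fcer1g, the common chain of Fc receptors, had 2 sites, listed in EDL (percentiles 72.9 and 64.5) and Quad (71.9 and 76.4) and not in Sol or Dia. Their assignment to Fcer1g rests on the distance to its start alone. Fcgr3, a receptor for IgG, had an intergenic site 14.7 to 14.9 kb downstream in every muscle, at percentile 72.9 in EDL, 80.4 in Quad, 70.4 in Dia and 58.6 in Sol. Dia also had a promoter peak for it, at percentile 9.72. The T lymphocyte genes had 1 peak in all, for Cd3e in Quad, at percentile 32.4.

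Peaks of the 4 lists that overlapped by at least 1 bp were joined, which gave 66 regions for the set. Of these, 15 regions (22.7%, 14.3% to 34.2%) were listed in all muscles, beside 26.9% of all regions. Promoter regions were shared in 5 of 11 cases and other regions in 10 of 55, beside 66.1% and 16.0% of all such regions. A single muscle listed 28 of the 66 regions (42.4%, 31.2% to 54.4%), beside 42.6% of all regions. Quad alone listed 19 of them (28.8% of the 66 regions, beside 22.7% of all regions) and EDL alone 3 (4.55% beside 6.71%). Sol alone listed 4 (6.06% beside 8.62%) and Dia alone 2 (3.03% beside 4.61%). Of the 19 in Quad alone, 18 lay below percentile 50 of that list, and the highest was at 50.8. EDL and Quad alone shared 7 regions (10.6%, beside 8.05% of all regions), at Ptprc, Spi1, Adgre1, H2-Aa, Runx1 and both Fcer1g sites. A region missing from a list means that no peak was called there, not that the site was closed.

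Motifs were searched on both strands in the central 200 bp of each peak, and a joined region was counted when any of its peaks held a match. Regions joined from more peaks could thus have more bases searched. Outside promoters, the PU.1 letters GAGGAAGT were found in 1 of 55 regions (1.82%, 0.322% to 9.61%), beside 2.98% of all such regions. RUNX (TGTGGTTT) was found in 2 of 55, beside 1.80%, and AP-1 (TGACTCA) in 8 of 55, beside 9.83%. The E-box CAGCTG was found in 10 of 55, beside 25.3%, MEF2 (CTA, 4 bases of any kind, TAG) in 1 of 55, beside 5.90%, and IRF (GAAA, 2 bases of any kind, GAAA) in 0 of 55, beside 2.73%. For all 6 motifs the share of all regions lay inside the interval of the set. Among the 11 promoter regions, PU.1, RUNX and the E-box had 1 match each and the others none. These counts were too small to tell the set from the rest.

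Lists for other cell types were counted in the same way. Their counts of genes with a peak in at least 1 list also have no share of all protein-coding genes beside them. All 20 endothelial genes and all 20 myofibre genes had a peak in at least 1 list, with 3.7 and 2.73 peaks per gene and list. Fibroblast genes followed with 19 of 20 and 2.56. The 35 leukocyte and macrophage genes had 1.01 peaks per gene and list, and 35 other macrophage genes, 25 of them with a peak, had 1.06. Granulocyte and mast cell genes were lowest, with a peak for 3 of 10 genes and 0.075 per gene and list. In peaks per gene and list, B lymphocyte genes (3 of 8 genes with a peak, 0.656) lay below both macrophage lists. Of their 21 peaks, 12 were named for Ebf1. Further T and NK lymphocyte genes (6 of 12, 1.27) lay above both macrophage lists, with 26 of their 61 peaks named for Cd28. As lists for cells that muscle should lack, neuron genes had a peak for 7 of 10 and 0.8 per gene and list, and hepatocyte genes for 6 of 10 and 0.625. A promoter peak was found for 14.3% to 22.9% of the leukocyte and macrophage genes in each list, and for 11.4% to 28.6% of the other macrophage genes. It was found for 0% of the neuron, granulocyte and further T and NK lymphocyte genes in every list, for 12.5% of the B lymphocyte genes, and for 0% of the hepatocyte genes except in Dia, with 10%. These last lists hold 8 to 12 genes each. The lists were not matched for promoter class or for the length of the stretches nearest to the gene starts. Differences in the number of nuclei, in open chromatin per nucleus and in these gene features cannot be told apart in these libraries.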

How the data were processed

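The data were 4 ATAC-seq peak lists of mouse muscle, with 1 pooled library per muscle. The authors aligned reads to mm10 with Bowtie2 at default settings, under which a read that matches several places is kept at 1 of them, and called and annotated peaks in each library with HOMER in its fixed-width mode for factors. The deposited score of a peak is the authors' normalised tag count, and the deposited distance is that to the nearest start site. Handling of the Tn5 offset and removal of mitochondrial reads are not given in the sources used here. In the annotation, a promoter extends 1 kb upstream and 100 bp downstream of a start.

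Peaks were assigned to a gene by the authors' gene name. The score was compared only as a rank within its own list (mid-rank percentile). Peak widths of 188 to 232 bp and thresholds were set per library, so absence from a list depends on both. Below a score of 10, all scores were whole multiples of 1 step within 0.006. On HOMER's default scale of 10 M tags these steps correspond to 103.9 M tags in EDL, 78.1 M in Quad, 104.6 M in Sol and 99.3 M in Dia, and the lowest-scored peaks to 25 to 36 tags. Overlapping peaks were merged at 1 bp. Base content, repeats (lower-case bases), copies of 32-base words and motifs were read from the mm10 genome (GRCm38.p6), and gene starts came from GENCODE vM21. Python 3 with pandas and scipy was used, and the counting steps were tested on simulated data. With 1 library per muscle no test between muscles was made.

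The genes and lists were chosen with earlier results of these data known. All 35 genes are accounted for, with values in every list for each gene with a peak. Sequences were chosen as the highest-scored peak outside promoters of Ptprc, Spi1, Ikzf1, Runx1, Irf8 and Itgam where listed, and other peaks with a PU.1 match. The intronic peak of Spi1 was added after its values were seen, and 1 of the chosen sequences is not reported here. The lists for other cell types are given as counts. The alternatives tried were other limits on score and distance, nearest protein-coding starts, other promoter and overlap definitions, and leaving out single genes.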

Additional observations from a re-analysis of the deposited data

How the results depend on the processing

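No paired analysis was possible because each muscle had a single library. Of 95 alternatives, 79 stayed within the interval of the reported value, or for counts within 1.5 times of it, and the cause of the other 16 changes was not tested beyond what their construction gives (fewer peaks or fewer genes). Without Cd44, Runx1, Runx3, Tlr4 and Cd14, the peaks per 10000 were 6.97 in EDL, 7.93 in Quad, 6.95 in Dia and 5.21 in Sol. Without Runx1 alone the value in Sol was 7.30. With the 20000 highest-scored peaks Quad had 10 per 10000, and with the upper 50% of each list Quad had 9.92 and Dia 7.41. Genes with a peak among the 20000 highest-scored numbered 10 in EDL and 11 in Quad, and in the upper 50% of each list 8 in EDL, 11 in Quad, 5 in Dia and 6 in Sol. With the 20000 highest-scored peaks, an alternative added after the data were seen, the share of CpG-poor genes with a promoter peak was 6.90% in Quad and 3.45% in Sol. Leaving out Ly6c2, also added later, kept the peaks per 10000 and the median percentile within their intervals in every muscle. Counting the Cd44 start as a promoter did the same for the promoter share. Ly6c2 had only 2 peaks per list, and the Cd44 recount left Quad and Sol unchanged. Neither alternative could move the values far, so their place among the 79 says little. The lowest-scored peaks held 25 to 36 inferred tags, and most sites of the macrophage surface genes other than Ly6c2 lay low in their lists, so their absence from a shorter list cannot be told apart from a signal just under its threshold.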

Other observations

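The number of peaks given to some of these genes depended on which annotated starts were used. Counting peaks by the nearest protein-coding start instead of the nearest annotated gene of any kind gave Ptprc 3 peaks in EDL, 8 in Quad, 1 in Dia and 7 in Sol, where the names gave 1, 1, 0 and 0. The stretch nearest to the Ptprc start is long, 657 kb. The Ptprc gene body held 1 peak each in EDL and Quad and 0 in Dia and Sol. Whether the further peaks belong to Ptprc was not tested. The same count gave Mrc1 2, 3, 1 and 1 peaks, where the names gave 0, 1, 0 and 0, and Runx1 11 in EDL, 15 in Quad, 7 in Dia and 12 in Sol. For the 13 genes without a peak by name, it gave none either.

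Among the lists for other cell types, the 2 genes with most peaks were Kdr (41) and Flt1 (34) for endothelium, Myl1 (30) and Ttn (27) for myofibres, and Twist2 (25) and Col5a1 (20) for fibroblasts. For the other macrophage genes they were Lgmn (20) and Cd83 (13), for B lymphocytes Ebf1 (12) and Cd79b (5), and for the further T and NK lymphocyte genes Cd28 (26) and Klrb1c (14). For the lists that served as a background they were Gad2 (9) and Snap25 (7) for neurons and Apoa1 (14) and Cyp7a1 (5) for hepatocytes. The counts are sums over the 4 lists.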
